A study of Homo sapiens with 5 samples.

Results

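The zinc finger genes of human chromosome 19 were taken as the genes with a symbol of ZNF followed by digits, on chromosome 19, with 30 or more reads summed over their poly(A) sites and the 5 libraries. Of 237 such genes listed, 159 qualified, out of 14347 gene loci with 30 or more reads in the whole data set. A further 71 held 1 to 29 reads and 7 held no read. The threshold uses measured reads, so it also admits genes that are high in 1 group only. Just inside it, ZNF233 held 30 reads (7, 6, 3, 6 and 8 in CFIm68 knockout lines 1 and 2, CFIm59 knockout lines 1 and 2 and the control) and ZNF701 held 31. Just outside it, ZNF573 and ZNF788 held 29 each.

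Zinc finger proteins of the C2H2 type bind DNA through repeated finger modules, and most of those encoded on chromosome 19 also carry a KRAB domain. KRAB domains recruit the corepressor TRIM28, which brings the histone methyltransferase SETDB1, HP1 proteins and the NuRD complex to the bound site. Many KRAB zinc finger proteins silence transposable elements, and their genes stand in clusters of tandem copies. Some members of the family, such as ZNF146 and ZNF580, have fingers but no KRAB domain.

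The groups were HEK293T cells, a human embryonic kidney line, with CFIm68 (gene CPSF6) knocked out by CRISPR/Cas9 (2 cell lines), HEK293T cells with CFIm59 (gene CPSF7) knocked out the same way (2 cell lines), and wild-type control HEK293T cells (1 library). CFIm68 and CFIm59 are alternative partners of CFIm25 (NUDT21) in cleavage factor Im, which binds UGUA in pre-mRNA and acts on poly(A) site choice. Reads marked mRNA 3′ ends at poly(A) sites, and each mRNA end gave 1 read whatever the length of the mRNA, so levels are given in CPM (counts per library total after TMM scaling, the usual rescaled unit) without correction for length. The lines of a genotype are separate cell lines, and neither how clones were derived nor the edited exons are given in the sources used here.

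The libraries held 2727728 and 2078376 reads in the CFIm68 knockout, 1673687 and 2585923 in the CFIm59 knockout and 2924266 in the control, of which 6.01% to 10.8% were mitochondrial. CPSF6 fell in the CFIm68 knockout (log2 -1.35, edgeR quasi-likelihood adjusted p = 0.000512). CPSF7 did not pass the test in the CFIm59 knockout (log2 0.04, adjusted p = 0.947), and its 3′ reads do not check that label. CPSF7 was higher in the CFIm68 knockout than in the control (log2 1.47, adjusted p = 0.000925) and than in the CFIm59 knockout (log2 1.42, adjusted p = 4.26e-06). NUDT21 was higher in the CFIm68 than in the CFIm59 knockout (log2 0.88, adjusted p = 0.00161) and passed in neither comparison against the control. All 6 HEK293T markers had reads, with summed levels of 141 and 175 CPM in the CFIm68 knockout lines, 111 and 150 CPM in the CFIm59 knockout lines and 117 CPM in the control, but single markers moved both ways. IRS4 stood at 0 in both CFIm59 knockout lines, against 21.2 and 8.43 CPM in the CFIm68 knockout lines and 12.03 CPM in the control. NEFL averaged 25.8 ± 2.51 CPM in the CFIm68 knockout and 84.9 ± 5.37 CPM in the CFIm59 knockout (SD, n = 2 each), against 50.4 CPM in the control, and fell in the CFIm68 knockout (adjusted p = 0.0357, 0.134 without CFIm68 line 1 and 0.44 with DESeq2 without independent filtering). In the CFIm68 knockout against the CFIm59 knockout, NEFL was lower and IRS4, NEFM, PAX2 and SALL1 were higher, and with DESeq2 the NEFM, PAX2 and SALL1 calls were lost (adjusted p = 0.355, 0.337 and 0.369). LHX1 passed in no comparison. Of 10 listed markers of blood, fibroblast, endothelial and liver cells, 9 had reads, and their summed level was 8.69 and 7.55 CPM in the CFIm68 knockout lines, 1.20 and 9.53 CPM in the CFIm59 knockout lines and 32.0 CPM in the control. The liver gene ALB made up most of the control's sum, with 0, 0, 0, 1 and 70 reads in the 5 libraries, whereas COL1A2 stood at 0 throughout. Their part in the results below was not tested.

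The 159 genes held 23842 reads, a median of 102 each with a range of 30 to 1426. They were spread over 1251 sites with reads, a median of 7 per gene. Many of the genes are close paralogs, so the authors' counting may have split or misplaced reads among them. Sites also listed under another gene carried 66 of the reads, in 8 members. The expression test was run on 157 of the 159 genes, and the site use test, which needs 2 well-covered sites, on 28.

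Transcripts of the family stood highest in the CFIm59 knockout. Summed over the 159 genes, the level was 1664 and 1761 CPM in the CFIm68 knockout lines, 2773 and 2813 CPM in the CFIm59 knockout lines and 1383 CPM in the control. Both CFIm59 knockout lines stood above every other library, and both CFIm68 knockout lines stood slightly above the control. The ratio of the sums was 2.02 for the CFIm59 knockout over the control, 1.24 for the CFIm68 knockout over the control and 0.61 for the CFIm68 knockout over the CFIm59 knockout. In bulk RNA, fewer cells that express a gene and less RNA per cell cannot be told apart.

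The increase was seen gene by gene. In the CFIm59 knockout against the control, 49 of the 157 tested genes rose and 0 fell (edgeR quasi-likelihood test, Benjamini-Hochberg adjusted p under 0.05). Of the 14636 genes tested across the genome, 6.98% rose and 6.87% fell in that comparison. At an unadjusted p under 0.05, 82 members were higher and 2 lower, against 2036 and 1963 of the 14636 genes tested. The median log2 change of the 157 genes was 1.15, with quartiles of 0.57 and 1.80, against 0.02 over all genes tested, and 146 of the 157 lay above 0. Of the 49 genes that rose, 10 are members only through their CFIm59 knockout reads, since they hold under 30 reads in the other 3 libraries. The 49 had a median change of 2.01. The change ran from 0.92 (ZNF580) to 4.49 (ZNF155) among those with control reads, while ZNF331, ZNF813 and ZNF682 had none, and their bounds lie above both medians. With DESeq2, 17 rose and 0 fell.

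In the CFIm68 knockout against the control, 2 members rose (ZNF155 and ZNF776) and 1 fell (ZNF480), where 1.59% of all genes rose and 2.03% fell. The median log2 change of the 157 was 0.46, against 0.02 over all genes, with 124 above 0. Tested directly between the knockouts, 40 members were lower and 3 higher in the CFIm68 knockout than in the CFIm59 knockout, where 10.3% of all genes were lower and 9.46% higher. The median log2 change was -0.69, against 0.00 over all genes. Among the 40, ZNF331, ZNF813, ZNF682, ZNF256, ZNF416, ZNF814, ZNF136, ZNF846, ZNF404 and ZNF582 are members only through their CFIm59 knockout reads. For such genes the read threshold for members favours a lower level in the CFIm68 than in the CFIm59 knockout. This limit also applies to the other counts of lower members between the knockouts. Without CFIm59 line 2 the counts between the knockouts were 22 lower and 1 higher. The count of higher members was 0 without CFIm59 line 1, and 1 without CFIm68 line 1. Against the control, 0 fell in the CFIm68 knockout without either of its lines, and 1 rose without its line 2. Against the control, DESeq2 gave an adjusted p for 1 member, as its independent filtering left out the other 156. Without that filtering, 0 were higher and 0 lower, and the adjusted p of ZNF155, ZNF776 and ZNF480 was 0.221, 0.485 and 0.528. At an unadjusted p under 0.05 in edgeR, 26 members were higher and 2 lower, against 1259 and 1264 of all 14636 genes tested. Between the knockouts DESeq2 gave 13 lower and 0 higher. At an unadjusted p under 0.05 in edgeR, 62 members were lower and 3 higher there, against 2343 and 2296 of all genes tested.

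The libraries separated in the same way without a significance threshold. Of the 157 genes, 32 are members only through their CFIm59 knockout reads. The 30-read rule therefore favours high CFIm59 knockout levels in the counts below. Both CFIm59 knockout lines stood above both CFIm68 knockout lines for 106 of the 157 genes (67.5%), a pattern found in 29.0% of all genes, and below them for 10 (29.9% of all genes). Both CFIm59 knockout lines stood above the control for 134 genes (85.4%), against 39.8% of all genes, and below it for 8, against 39.9% of all genes. Both CFIm68 knockout lines stood above the control for 99 (63.1%), against 37.5% of all genes, and below it for 22, against 36.4%. For 102 members, the CFIm59 knockout lines were higher than every other library. That pattern needs both CFIm59 knockout lines above both CFIm68 knockout lines, so at most 29.0% of all genes can show it.

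**Figure D1:**
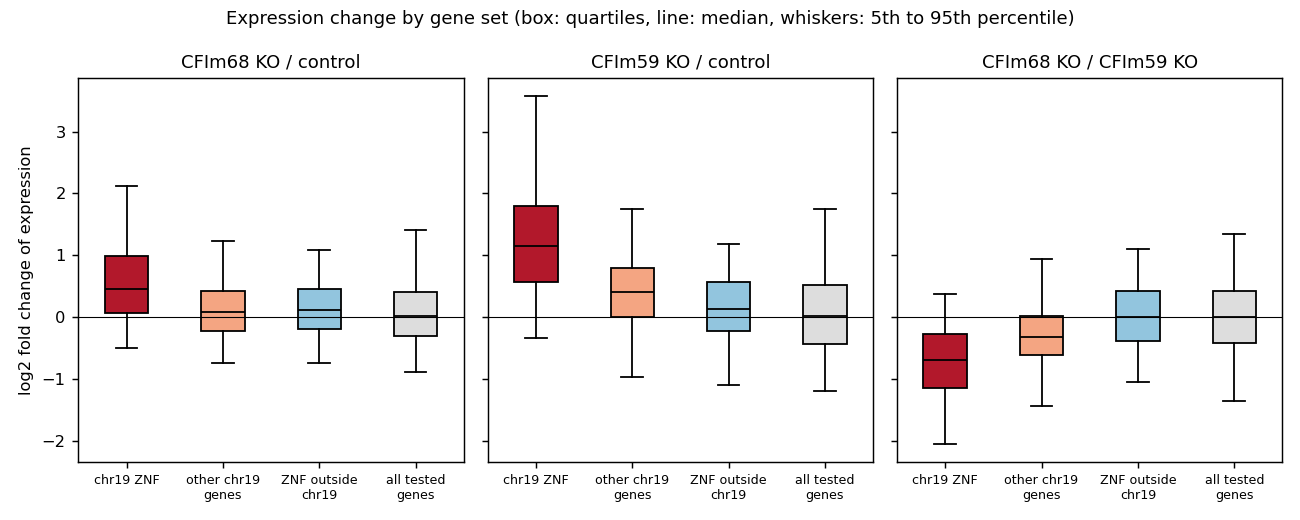
Log2 fold change of expression (vertical axis) of the tested chromosome 19 ZNF genes, other chromosome 19 genes, ZNF genes elsewhere and all tested genes, in the 3 comparisons named above the panels; boxes give quartiles, lines medians and whiskers the 5th to 95th percentile. The chromosome 19 ZNF box lies at a median of 1.15 for the CFIm59 knockout over the control and -0.69 for the CFIm68 over the CFIm59 knockout, while ZNF genes elsewhere have medians of 0.14 and 0.00.

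ZNF genes elsewhere in the genome gave smaller changes. Of 196 with 30 or more reads, 12 rose and 10 fell in the CFIm59 knockout against the control, with a median log2 change of 0.14. Their summed level was 4894 and 5113 CPM in the CFIm68 knockout lines, 5014 and 4783 CPM in the CFIm59 knockout lines and 4824 CPM in the control, so the groups overlapped. The other genes of chromosome 19 lay in between. Of 779 tested, 112 rose and 26 fell in the CFIm59 knockout against the control, with a median of 0.41, and 27 were higher and 149 lower in the CFIm68 than in the CFIm59 knockout, with a median of -0.32. The summed level of those other chromosome 19 genes was 64162 and 66263 CPM in the CFIm68 knockout lines, 83845 and 88595 CPM in the CFIm59 knockout lines and 70170 CPM in the control. Whether a change of the whole chromosome takes part in the change of its ZNF genes was not tested. No test compared the gene sets themselves.

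Genes outside the threshold, and members chosen on other libraries, are given as a description. The 78 chromosome 19 ZNF genes below 30 reads summed to 55.6 and 40.8 CPM in the CFIm68 knockout lines, 73.2 and 79.5 CPM in the CFIm59 knockout lines and 37.6 CPM in the control. Of the members tested, 125 held 30 or more reads without counting the CFIm59 knockout libraries, and of these 39 rose and 0 fell in the CFIm59 knockout against the control, with a median log2 change of 1.00. Members were also split in 3 by their level in the CFIm68 knockout, which does not enter that contrast. The 53 most abundant had a median log2 change of 0.92 with 21 that rose, the middle 52 a median of 1.00 with 14, and the 52 least abundant a median of 1.64 with 14. A gene that is low in the CFIm68 knockout reaches 30 reads more readily if it is high in the CFIm59 knockout. The larger median of the least abundant members is therefore not independent of the 30-read rule.

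Ordered along the chromosome, 141 of the members fell into 8 clusters, split at gaps over 1 Mb and lettered A to H from the short-arm end (hg19, median site positions as deposited). The largest, cluster H, holds 44 genes near the end of the long arm (chromosome 19, 55995850 to 58995359). Its summed level was 415 and 499 CPM in the CFIm68 knockout lines, 860 and 834 CPM in the CFIm59 knockout lines and 373 CPM in the control. In the CFIm59 knockout against the control, 18 of the 44 rose, with a median log2 change of 1.62. Among the 18, ZNF583, ZNF416, ZNF814 and ZNF256 are members only through their CFIm59 knockout reads. Between the knockouts, the median of the cluster was -0.97.

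Clusters A, B, D, E, F and G gave medians of 0.96 to 1.46 in the CFIm59 knockout against the control. Cluster G (23 genes, 52092075 to 54081332) summed to 164 and 162 CPM in the CFIm68 knockout lines, 413 and 363 CPM in the CFIm59 knockout lines and 147 CPM in the control, and 6 of its genes rose. Among these 6, ZNF331 and ZNF813 are members only through their CFIm59 knockout reads. ZNF331 alone gave 60.6 and 65.9 CPM of the sums in the CFIm59 knockout lines. Cluster F (20 genes, 44103718 to 45574966) had 6 genes that rose and a median of 1.46, and cluster A (13 genes, 7083762 to 9865499) had 6 and a median of 1.20. Cluster E (18 genes, 36706042 to 38051298) had 5 and a median of 0.96. The small clusters B (10 genes, 11594244 to 12740692) and D (5 genes, 35177010 to 35447257) had 3 and 1. Among the genes that rose, ZNF527 in cluster E and ZNF136 in cluster B are also members only through their CFIm59 knockout reads.

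Cluster C (8 genes, 21239668 to 21909059) did not share the increase. Its summed level was 105 and 83.9 CPM in the CFIm68 knockout lines, 85.3 and 76.6 CPM in the CFIm59 knockout lines and 91.7 CPM in the control, so the libraries overlapped. In it, 0 genes rose in the CFIm59 knockout against the control, and the median log2 change was -0.40. The 3 members that were higher in the CFIm68 than in the CFIm59 knockout, ZNF738, ZNF493 and ZNF429, all belong to cluster C. Of the members below 0 in the CFIm59 knockout against the control, 5 lie in it, 4 in no cluster, 1 in cluster A and 1 in cluster D.

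ZNF738 held 28 and 24 reads in the CFIm68 knockout lines, 2 and 8 in the CFIm59 knockout lines and 21 in the control. It was higher in the CFIm68 than in the CFIm59 knockout (log2 2.05, SE 0.53, edgeR adjusted p = 0.00363, and 0.0616 without CFIm59 line 1). ZNF493 held 30 and 14 reads in the CFIm68 knockout lines, 3 and 5 in the CFIm59 knockout lines and 10 in the control, with log2 2.08 between the knockouts (adjusted p = 0.0098). ZNF429 held 18 and 9 reads, 3 and 2 reads and 17 reads in the same order of groups, with log2 2.03 (adjusted p = 0.0474). Both CFIm59 knockout lines were the lowest libraries for these genes. Leaving out 1 line ended the call of ZNF493 in 3 cases (adjusted p = 0.0509 without CFIm59 line 1, 0.0714 without CFIm59 line 2 and 0.187 without CFIm68 line 1) and that of ZNF429 in 3 (0.0721, 0.339 and 0.281 without the same lines). With DESeq2 none of these 3 calls held (adjusted p = 0.123 for ZNF738, 0.2 for ZNF493 and 0.345 for ZNF429). The other 5 genes of the cluster (ZNF430, ZNF714, ZNF431, ZNF708 and ZNF100) had log2 changes of -0.47 to 0.33 in the CFIm59 knockout against the control, and none of them passed in any comparison.

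**Figure D2:**
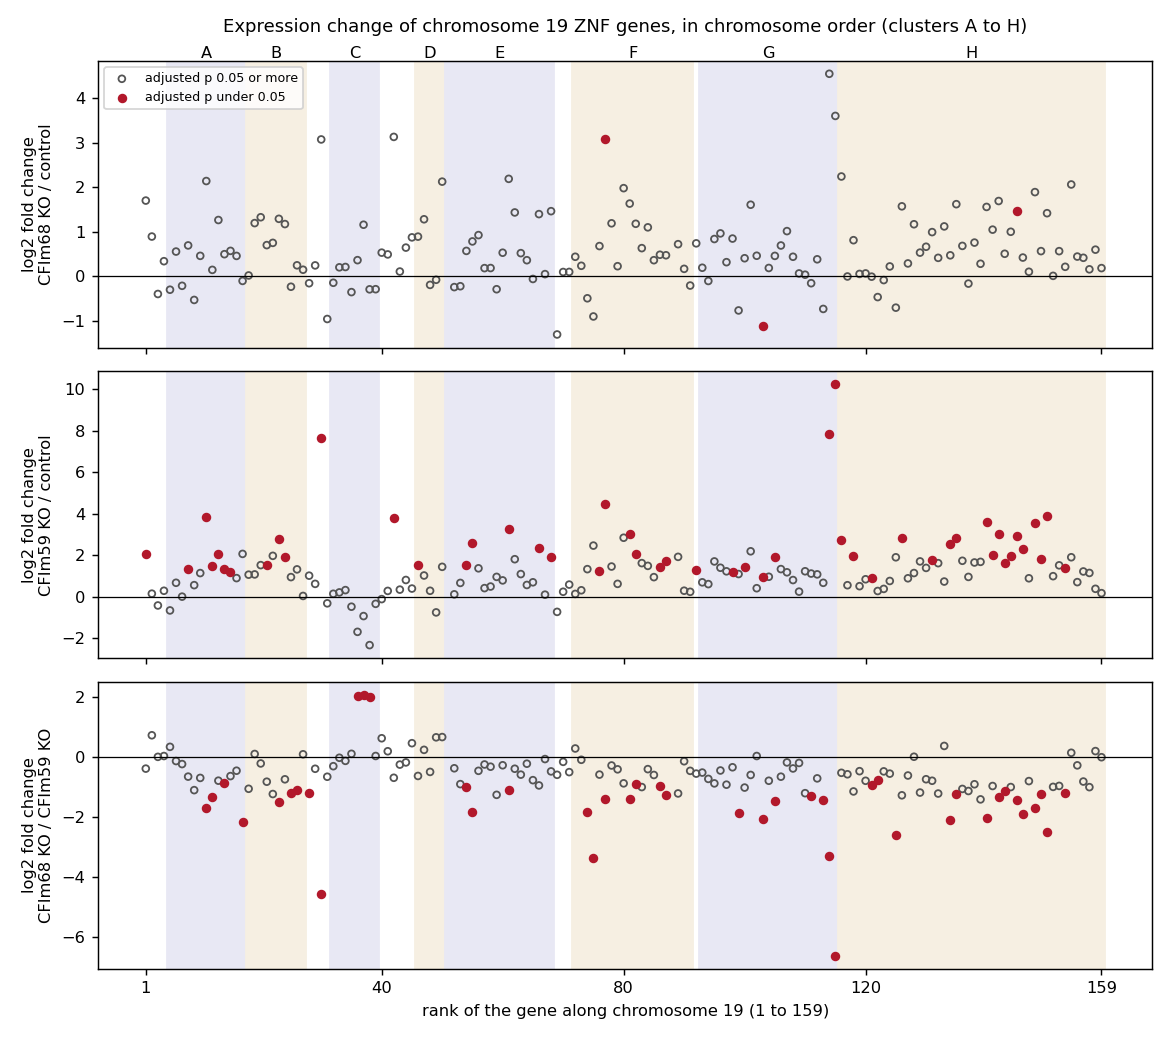
Log2 fold change of expression of the tested members (vertical axis) against their rank along chromosome 19 (horizontal axis) in the CFIm68 knockout over the control, the CFIm59 knockout over the control and the CFIm68 over the CFIm59 knockout, with clusters A to H shaded and filled points at an adjusted p under 0.05. In the middle panel 49 filled points lie above 0 and none below; in the bottom panel the 3 filled points above 0 lie in cluster C.

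**Figure D3:**
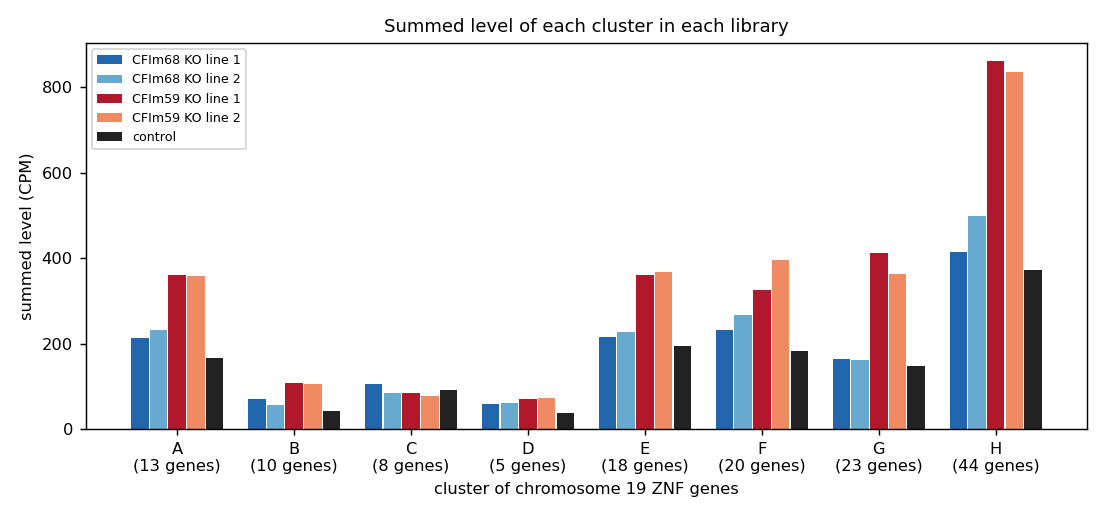
Summed level in CPM (bars, 1 per library) of each cluster. The CFIm59 knockout bars are the highest in every cluster but C, and in cluster H they reach 860 and 834 CPM, against 373 CPM in the control.

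Genes of other kinds that lie between the first and last member of a cluster were read as neighbours. Of 98 tested, 20 rose and 2 fell in the CFIm59 knockout against the control, with a median log2 change of 0.66. Their medians were 1.19 in cluster H (26 genes), 2.30 in cluster E (8 genes), 0.71 in cluster G, 0.58 in B, 0.52 in A and F and 0.02 in C (3 genes). The other chromosome 19 genes not read as neighbours had a median of 0.38, with 92 of 681 that rose and 24 that fell. They include zinc finger genes of other names, such as ZSCAN and ZFP, wherever these lie. Members in no cluster numbered 18, with a median of 0.38 and 4 that rose.

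ZNF331, ZNF813 and ZNF682, with the largest fitted log2 changes in the CFIm59 knockout against the control, held few reads in every other library. ZNF155 and ZNF177, with large changes too, were low in the control but not in the CFIm68 knockout lines. In all, 34 members held under 30 reads in the other 3 libraries and are members through the CFIm59 knockout reads. ZNF331 (3 reads outside that knockout), ZNF813 (6), ZNF682 (2), ZNF256 (19), ZNF416 (14), ZNF814 (17) and ZNF136 (23) are among them, and their values are given as a description without a test. The intervals given for these genes cover counting error only and do not allow for the 30-read rule. ZNF331, an imprinted KRAB zinc finger gene in cluster G, held 1 and 2 reads in the CFIm68 knockout lines, 101 and 159 in the CFIm59 knockout lines and 0 in the control. This was 0.618 ± 0.382 CPM in the CFIm68 knockout and 63.3 ± 3.70 CPM in the CFIm59 knockout (SD, n = 2 each). The CFIm59 knockout was at least 56.1-fold above the control, at a floor of 3 reads per library. The CFIm68 knockout held 0.00918 times the CFIm59 knockout's level (exact 95% counting interval 0.00188 to 0.0271). Its reads lay at 3 last exon sites on the plus strand (hg19, chromosome 19, 54081332, 54082838 and 54083520), with 10 and 18, 50 and 52, and 39 and 85 reads in the CFIm59 knockout lines. None of these sites was listed under another gene.

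ZNF813, also in cluster G, held 2 and 4 reads in the CFIm68 knockout lines, 23 and 25 in the CFIm59 knockout lines and 0 in the control. It was at least 10.7-fold higher in the CFIm59 knockout than in the control. ZNF682, which stands in no cluster and was chosen after its values were seen, held 1 and 1 reads, 16 and 27 reads and 0 reads in the same groups, at least 9.22-fold above the control. For these 3 genes the CFIm59 knockout lines stood apart from the other libraries.

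Several KRAB zinc finger genes had 2 or 3 reads in the control, so their ratios are loosely bounded. ZNF155 (cluster F) held 36 and 16 reads in the CFIm68 knockout lines, 37 and 73 in the CFIm59 knockout lines and 3 in the control. Its ratio to the control was 8.99 in the CFIm68 knockout (exact 95% counting interval 2.91 to 45.0, adjusted p = 0.00438) and 23.9 in the CFIm59 knockout (7.97 to 118, adjusted p = 4.2e-07). It was lower in the CFIm68 than in the CFIm59 knockout (log2 -1.40, adjusted p = 0.00125, 0.0651 without CFIm59 line 2 and 0.0949 with DESeq2). ZNF155 and ZNF776 were the members that rose in both knockouts.

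ZNF256, a KRAB gene of cluster H, held 11 and 5 reads in the CFIm68 knockout lines, 33 and 38 in the CFIm59 knockout lines and 3 in the control. The CFIm59 knockout was 15.4 times the control (5.07 to 76.6), and the CFIm68 knockout lay below the CFIm59 knockout by a log2 change of -2.49. ZNF416 and ZNF814, also in cluster H, held 2 control reads each and stood at 12.7 times that level in the CFIm59 knockout (3.29 to 109), with 9.85 ± 2.21 and 9.57 ± 0.0556 CPM there. For these genes both CFIm59 knockout lines were the highest libraries.

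ZNF776 (cluster H) held 39 and 41 reads in the CFIm68 knockout lines, 70 and 105 in the CFIm59 knockout lines and 15 in the control, which is 13.6 and 18.2, 42.0 and 43.5, and 5.64 CPM. It rose in the CFIm59 knockout against the control (log2 2.91, SE 0.41, adjusted p = 6.12e-07) and in the CFIm68 knockout against the control (log2 1.47, SE 0.43, adjusted p = 0.0424, and 0.153 without CFIm68 line 2). ZNF177 (cluster A) stood at 7.30 and 6.21 CPM in the CFIm68 knockout lines, 19.8 and 24.4 CPM in the CFIm59 knockout lines and 1.504 CPM in the control (log2 3.84 for the CFIm59 knockout against the control, SE 0.59, adjusted p = 4.16e-06). ZNF829 (cluster E) stood at 6.60 and 7.55, 14.4 and 15.7, and 1.504 CPM in the same groups (log2 3.29, SE 0.64, adjusted p = 0.000206). All of these are KRAB genes, and in each the groups did not overlap.

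ZNF529 (cluster E), with 465 reads 1 of the 6 most read members, stood at 19.1 and 25.3 CPM in the CFIm68 knockout lines, 72.6 and 82.0 CPM in the CFIm59 knockout lines and 12.8 CPM in the control. Its log2 change was 2.60 in the CFIm59 knockout against the control (SE 0.34, adjusted p = 9.79e-08) and -1.81 in the CFIm68 against the CFIm59 knockout (SE 0.24, adjusted p = 1.11e-07). The CFIm59 knockout lines were the highest libraries and the control the lowest. ZNF749 and ZNF586, both of cluster H, had log2 changes of 2.57 (adjusted p = 0.000391) and 2.30 (adjusted p = 0.00189) in the CFIm59 knockout against the control. The call of ZNF586 was lost without CFIm59 line 2 (adjusted p = 0.157), which held 60 reads, against 19 in line 1, and with DESeq2 (adjusted p = 0.123).

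ZNF480, a KRAB gene of cluster G, moved in opposite directions in the knockouts. It held 38 and 27 reads in the CFIm68 knockout lines, 85 and 131 in the CFIm59 knockout lines and 73 in the control, or 12.6 ± 0.862 CPM, 52.6 ± 2.29 CPM (SD, n = 2 each) and 27.4 CPM. It fell in the CFIm68 knockout against the control (log2 -1.12, SE 0.33, adjusted p = 0.0404) and rose in the CFIm59 knockout against the control (log2 0.94, SE 0.30, adjusted p = 0.0288). The direct difference was -2.06 (SE 0.27, adjusted p = 5.71e-08). Against the control, the call was lost when either line of the tested knockout was left out (adjusted p = 0.0752 and 0.117 for the CFIm68 knockout, 0.0562 and 0.108 for the CFIm59 knockout), and with DESeq2 that of the CFIm59 knockout was lost too (adjusted p = 0.314). ZNF432, also of cluster G, was lower in the CFIm68 than in the CFIm59 knockout (log2 -1.87, adjusted p = 0.000107), with 10.4 and 3.55 CPM in the CFIm68 knockout lines, 33.6 and 20.7 CPM in the CFIm59 knockout lines and 12.4 CPM in the control.

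**Figure D4:**
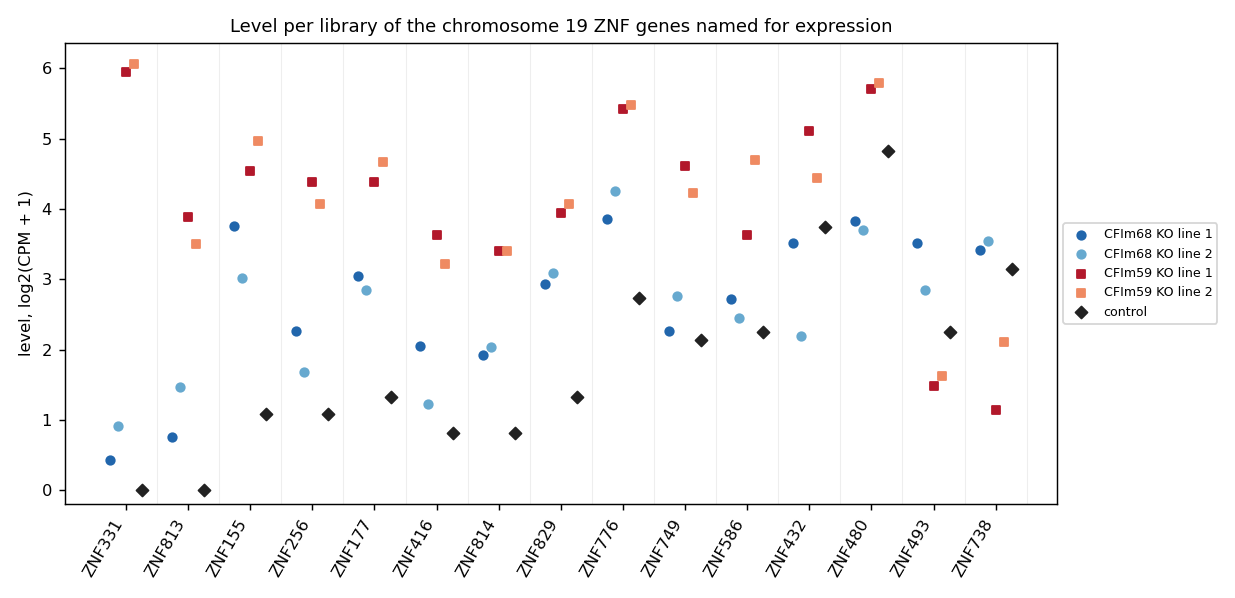
Level of each gene named for expression, as log2(CPM + 1), in the 5 libraries (1 symbol per library), ordered by the log2 change in the CFIm59 knockout against the control. From ZNF331 to ZNF480 both CFIm59 knockout lines are the highest symbols; for ZNF493 and ZNF738 they are the lowest.

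The members with most reads responded unevenly. ZNF580, a small protein with 3 fingers, was the most read (1426 reads) and stood at 76.1 and 107 CPM in the CFIm68 knockout lines, 156 and 191 CPM in the CFIm59 knockout lines and 91.7 CPM in the control. It rose in the CFIm59 knockout against the control (log2 0.92, adjusted p = 0.0132, 0.118 without CFIm59 line 2 and 0.0855 with DESeq2). ZNF121 rose as well, at 48.3 and 55.9, 82.3 and 105, and 36.8 CPM (log2 1.35, adjusted p = 0.000665). ZNF428 (log2 0.32, adjusted p = 0.474), ZNF146, which consists of little but fingers (log2 0.12, adjusted p = 0.805), and ZNF358 (log2 0.68, adjusted p = 0.129) did not pass. ZNF146 stood at 73.0 and 88.8 CPM in the CFIm68 knockout lines, 101 and 106 CPM in the CFIm59 knockout lines and 95.5 CPM in the control.

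The largest changes of the other clusters, called or not, were ZNF136 in cluster B (log2 2.78 in the CFIm59 knockout against the control, with 20 and 23 reads in its lines and 4 in the control) and ZNF302 in cluster D (log2 1.51, adjusted p = 0.0011). ZNF302 stood at 29.9 and 25.7 CPM in the CFIm68 knockout lines, 44.4 and 41.8 CPM in the CFIm59 knockout lines and 15.04 CPM in the control. In the CFIm68 knockout against the control, the largest were ZNF440 in cluster B (log2 1.33, adjusted p = 0.359), ZNF792 in D (2.12, adjusted p = 0.135) and ZNF628 in H (2.24, adjusted p = 0.0729), none of which passed. ZNF628 held 4 reads in the control and passed edgeR's test in the CFIm59 knockout against it (2.76, adjusted p = 0.00526), but not that of DESeq2 (adjusted p = 0.132).

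Members with a known function, chosen after their values were seen, gave mixed results. ZNF274, which recruits SETDB1 to the 3′ ends of other zinc finger genes, held 33 and 42 reads in the CFIm68 knockout lines, 68 and 66 in the CFIm59 knockout lines and 34 in the control. It rose in the CFIm59 knockout against the control (log2 1.39, SE 0.38, adjusted p = 0.00778, 0.088 without CFIm59 line 1 and 0.184 with DESeq2). ZNF473, which takes part in 3′ end processing of replication-dependent histone mRNAs, stood at 13.9 and 11.1, 15.6 and 20.7, and 7.52 CPM in the same groups, with log2 1.28 (adjusted p = 0.0383, 0.229 without CFIm59 line 2 and 0.399 with DESeq2). ZNF91, which binds SVA retrotransposons, stood at 9.38 and 4.44, 1.80 and 6.63, and 4.89 CPM, and its groups overlapped (log2 -0.11, adjusted p = 0.946).

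Promoters of the family were read from RefSeq (GRCh38.p14, 250 bases before to 50 after the most upstream start), and 146 of the 159 members matched. They are shown for 3 members that were higher in the CFIm59 knockout (ZNF331, ZNF256 and ZNF776) and for ZNF493 of cluster C, which did not. The promoters lie at chr19:53520764-53521063 (ZNF331, plus strand), chr19:57947657-57947956 (ZNF256, minus strand), chr19:57746565-57746864 (ZNF776, plus strand) and chr19:21396883-21397182 (ZNF493, plus strand). Capitals mark the longer run of a ZNF143 motif (in ZNF331 only among those shown, with 1 free base in its middle), CCGGAAG (an ETS-type motif) and CCAAT (an NF-Y motif) on either strand.
ZNF331: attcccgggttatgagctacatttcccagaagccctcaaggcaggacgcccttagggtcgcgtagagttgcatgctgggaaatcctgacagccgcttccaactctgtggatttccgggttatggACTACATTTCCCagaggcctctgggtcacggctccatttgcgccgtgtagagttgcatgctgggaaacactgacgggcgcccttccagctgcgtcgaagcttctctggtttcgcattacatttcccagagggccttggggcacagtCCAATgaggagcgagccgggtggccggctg
ZNF256: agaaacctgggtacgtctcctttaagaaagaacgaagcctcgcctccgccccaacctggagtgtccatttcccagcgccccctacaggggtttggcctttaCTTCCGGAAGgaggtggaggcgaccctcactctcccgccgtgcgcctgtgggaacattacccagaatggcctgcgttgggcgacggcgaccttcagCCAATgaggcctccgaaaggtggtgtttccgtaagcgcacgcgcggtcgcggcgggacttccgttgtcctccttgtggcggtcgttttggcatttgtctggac
ZNF776: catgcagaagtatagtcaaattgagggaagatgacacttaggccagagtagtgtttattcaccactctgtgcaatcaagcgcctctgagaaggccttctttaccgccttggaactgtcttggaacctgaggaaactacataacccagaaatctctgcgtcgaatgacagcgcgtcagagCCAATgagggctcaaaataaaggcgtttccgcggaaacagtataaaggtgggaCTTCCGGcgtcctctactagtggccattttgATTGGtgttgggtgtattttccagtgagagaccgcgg
ZNF493: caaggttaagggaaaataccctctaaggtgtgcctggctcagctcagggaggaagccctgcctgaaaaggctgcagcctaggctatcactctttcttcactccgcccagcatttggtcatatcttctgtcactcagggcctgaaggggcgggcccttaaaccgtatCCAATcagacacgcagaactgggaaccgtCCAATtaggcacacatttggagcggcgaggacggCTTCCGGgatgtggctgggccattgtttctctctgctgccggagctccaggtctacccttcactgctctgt
Minus-strand matches appear as the reverse complement, and in ZNF256 matches on both strands overlap.

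The ZNF143 motif was found in 20 of the 146 member promoters (13.7%), against 5.64% of 195 promoters of ZNF genes elsewhere and 0.875% of 27326 promoters in all. CCGGAAG was found in 43.2%, 35.9% and 10.6% of the same sets, and CCAAT in 47.3%, 43.6% and 35.7%. TATAAA was found in 2.74%, 4.62% and 12.02%. Members with and without the ZNF143 motif had median log2 changes of 1.30 (20 genes) and 1.10 (125 genes) in the CFIm59 knockout against the control. With and without CCAAT the medians were 1.40 and 1.05, and with and without CCGGAAG 1.12 and 1.19. The motifs were chosen after the expression values were known, and these figures are a description. The median number of CG dinucleotides in the 300 bases was 22 in members, 24 in ZNF genes elsewhere and 14 over all promoters.

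The number of C2H2 fingers, counted in the longest reading frame of the GENCODE v29 transcripts, ranged from 0 to 31 with a median of 12. In the CFIm59 knockout against the control, the median log2 change was 0.97 for 47 members with under 10 fingers, 1.37 for 68 with 10 to 14 and 1.21 for 42 with 15 or more. Spearman's rho between fingers and the change was 0.043 over the genes, which are not independent replicates.

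Poly(A) site use of the family was compared next, since CFIm acts on site choice. For each gene the pair of sites with most reads was taken, and the upstream one was called proximal. Of the 28 members tested, 21 had both sites in the last exon, and the median distance between sites was 1812 nt, against 1375 nt over all 5869 genes tested. The median proximal share over the 28 was 57.1% and 49.7% in the CFIm68 knockout lines, 36.7% and 38.98% in the CFIm59 knockout lines and 50% in the control. The medians over all genes were 50% and 47.1%, 28.6% and 29.2%, and 34.4%.

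In the CFIm68 knockout against the control, 2 of the 28 members used the upstream site more and 2 the downstream one, where 25.0% and 3.1% of all genes did so. The median pair held 138.5 reads in the members and 390 over all genes, so the members were tested at lower depth. In the CFIm59 knockout against the control, 0 moved to the proximal and 0 to the distal site (0.988% and 5.06% of all genes), and DESeq2 without independent filtering also gave 0 and 0. At an unadjusted p under 0.05 in edgeR, 0 and 3 members moved, against 230 and 933 of all 5869 genes tested. Between the knockouts, 6 had more proximal use and 2 more distal use in the CFIm68 knockout (40.5% and 6.08% of all genes). The median log2 change of the proximal to distal ratio was 0.44 in the CFIm68 knockout against the control, -0.49 in the CFIm59 knockout against the control and 0.86 between the knockouts, against 0.61, -0.34 and 0.88 over all genes. With DESeq2 none of the 4 calls of the CFIm68 knockout against the control held (adjusted p = 0.0645 for ZNF614, 0.0858 for ZNF254, 0.126 for ZNF675 and 0.148 for ZNF480). The pair of ZNF331 had no control read, so its change against the control could not be estimated.

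ZNF675, a KRAB protein also known to bind TRAF6 and dampen its signalling, used its proximal site for 100% and 94.3% of pair reads in the CFIm68 knockout lines, 26.3% and 40% in the CFIm59 knockout lines and 77.8% in the control (Wilson 95% interval 59.2 to 89.4). Its sites lie on the minus strand at 23835709 (last exon) and 23833881 (classed as intron; hg19). The knockouts lay on opposite sides of the control. The log2 change was 3.33 in the CFIm68 knockout against the control (SE 1.20, adjusted p = 0.0303, and 0.235 without CFIm68 line 1) and 6.07 between the knockouts (SE 0.88, adjusted p = 8.67e-08). ZNF254, a KRAB gene, used its proximal site (24311183, with the distal site at 24312652) for 97.1% and 86.4% in the CFIm68 knockout lines, 40% and 47.4% in the CFIm59 knockout lines and 52.2% in the control. Its log2 change was 3.47 in the CFIm68 knockout against the control (adjusted p = 0.00642, and 0.127 without CFIm68 line 1) and 3.90 between the knockouts (adjusted p = 0.000356).

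ZNF480 and ZNF614 moved to the distal site. ZNF480 used its proximal site (52824966, with the distal site 4206 nt downstream) for 60.0% and 38.5% in the CFIm68 knockout lines, 90.4% and 89.7% in the CFIm59 knockout lines and 80% in the control (69.2 to 87.7). The log2 change was -1.997 in the CFIm68 knockout against the control (SE 0.64, adjusted p = 0.0148, and 0.182 without CFIm68 line 2) and -3.16 between the knockouts (adjusted p = 5.31e-06). Its proximal reads numbered 18 and 10 in the CFIm68 knockout lines, 75 and 113 in the CFIm59 knockout lines and 56 in the control, and its distal reads 12 and 16, 8 and 13, and 14. The proximal reads differed between the groups, and the distal reads overlapped.

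ZNF614, a KRAB gene of cluster G, has its proximal site in an intron (52516577) and its distal site in the last exon (52516018). It used the proximal site for 51.2% and 41.9% in the CFIm68 knockout lines, 97.4% and 89.4% in the CFIm59 knockout lines and 95.5% in the control (78.2 to 99.2). The log2 change was -4.38 in the CFIm68 knockout against the control (SE 1.11, adjusted p = 0.00174) and -3.85 between the knockouts (SE 0.69, adjusted p = 5.21e-06).

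The other members with more proximal use in the CFIm68 than in the CFIm59 knockout were ZNF224, ZNF561, ZNF576 and ZNF77. ZNF224, a KRAB repressor of the aldolase A gene, used its proximal site (44612477, with the distal site at 44613978) for 57.1% and 45.2% in the CFIm68 knockout lines, 9.09% and 8.20% in the CFIm59 knockout lines and 29.4% in the control (13.3 to 53.1). Its change between the knockouts was log2 3.43 (SE 0.65, adjusted p = 1.55e-05). ZNF561 used it for 78.6% and 63.0%, 26.5% and 18.6%, and 50% in the same groups (log2 3.07, adjusted p = 8.16e-05), but its distal site is classed as intron, and with last exon sites alone the change was 1.19 (adjusted p = 0.174). In both genes the control lay between the knockouts.

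ZNF576 used its proximal site for 59.4% and 63.9% in the CFIm68 knockout lines, 31.6% and 33.3% in the CFIm59 knockout lines and 46.4% in the control (log2 1.72, adjusted p = 0.0267). That call was lost when any 1 line was left out (adjusted p = 0.051 to 0.112) and with DESeq2 (adjusted p = 0.149). ZNF77 used an intron site for 43.5% and 0% in the CFIm68 knockout lines, 10% and 4% in the CFIm59 knockout lines and 8.33% in the control (log2 2.58, adjusted p = 0.0281). Line 2 of the CFIm68 knockout held 0 of 14 pair reads there, so the change rested on line 1, and without it the value was -3.11 (adjusted p = 0.383).

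**Figure D5:**
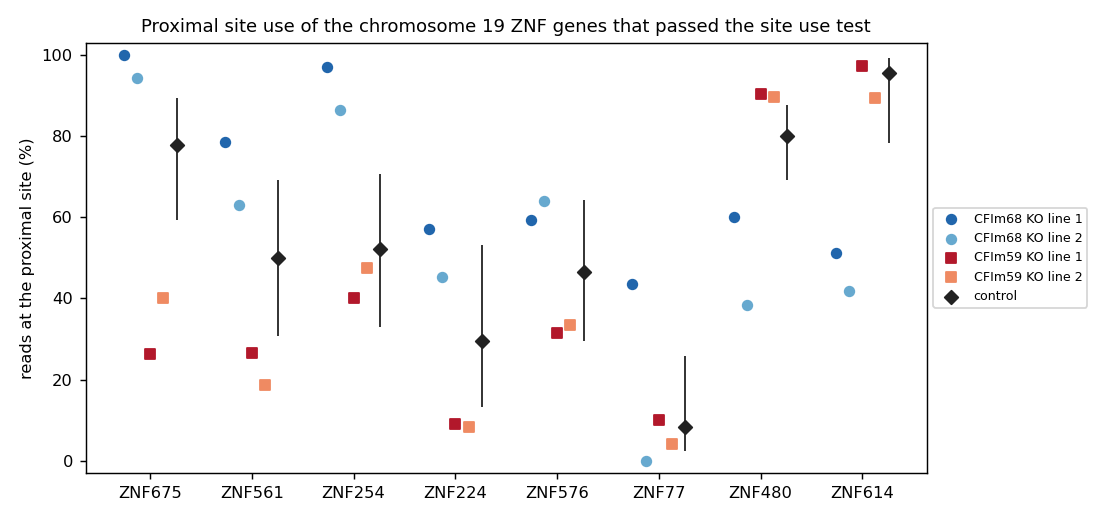
Share of pair reads at the proximal site (vertical axis, percent) in the 5 libraries for the 8 members that passed the site use test, with the Wilson 95% interval of the control as a line. The CFIm68 knockout lines lie above the CFIm59 knockout lines for ZNF675, ZNF561, ZNF254, ZNF224 and ZNF576, below them for ZNF480 and ZNF614, and on both sides for ZNF77.

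Among the members with most reads, ZNF428 used its proximal site for 98.5% and 98.0% in the CFIm68 knockout lines, 95.1% and 96.1% in the CFIm59 knockout lines and 97.8% in the control, and its sites are 233 nt apart. Over all members, intron sites took 11.5% and 9.18% of reads in the CFIm68 knockout lines, 12.1% and 11.3% in the CFIm59 knockout lines and 10.3% in the control. Upstream exon sites took 1.21% and 0.832%, 0.844% and 1.00%, and 1.66%. The intron shares of the CFIm68 and CFIm59 knockout lines overlapped.

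The corepressors that KRAB zinc finger proteins use passed the expression test in few cases. TRIM28, which also lies on chromosome 19, stood at 351 and 448 CPM in the CFIm68 knockout lines, 609 and 477 CPM in the CFIm59 knockout lines and 343 CPM in the control (log2 0.66 for the CFIm59 knockout against the control, adjusted p = 0.0665). Against the control, 1.59% of all genes rose and 2.03% fell in the CFIm68 knockout, and 6.98% rose and 6.87% fell in the CFIm59 knockout. Of the 5 corepressor genes TRIM28, SETDB1, ATF7IP, TRIM24 and TRIM33, 1 rose and 0 fell in each knockout against the control. That was ATF7IP, a SETDB1 cofactor (log2 1.29, adjusted p = 0.0111 in the CFIm68 knockout; log2 1.32, adjusted p = 0.0029 in the CFIm59 knockout), whose calls were lost with DESeq2 (adjusted p = 0.27 without independent filtering, and 0.0622). At an unadjusted p under 0.05, 1 of the 5 was lower in the CFIm59 knockout, while the CFIm68 knockout had 0. Between the knockouts TRIM24 was higher in the CFIm68 knockout (log2 0.80, adjusted p = 0.0209, 0.237 with DESeq2 and 0.0832 to 0.188 without either CFIm59 line or CFIm68 line 2).

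For site use more of them passed, but so did more of all genes. In the CFIm68 knockout against the control, 25.0% of all genes moved to the proximal site. In the CFIm59 knockout against the control, 5.06% moved to the distal site. Between the knockouts, 40.5% had more proximal use in the CFIm68 knockout. These shares also apply to the lists below. Of the 3 corepressor genes tested for site use, 2 moved to the proximal site in the CFIm68 knockout against the control (ATF7IP and TRIM33), 1 to the distal site in the CFIm59 knockout against the control (ATF7IP) and 3 to the proximal site in the CFIm68 against the CFIm59 knockout. ATF7IP used its proximal site for 95.2% and 96.2% of pair reads in the CFIm68 knockout lines, 11.8% and 21.3% in the CFIm59 knockout lines and 60% in the control, so the knockouts lay on opposite sides of the control. Its log2 change was 3.80 in the CFIm68 knockout against the control (adjusted p = 0.000631), -2.87 in the CFIm59 knockout against the control (adjusted p = 0.0133, 0.0844 without CFIm59 line 1 and 0.264 with DESeq2 without independent filtering) and 6.67 between the knockouts (adjusted p = 1.12e-13). TRIM33 gave 2.03 in the CFIm68 knockout against the control (adjusted p = 0.000618, and 0.0512 with DESeq2), and SETDB1 1.83 between the knockouts (adjusted p = 0.00324, 0.0543 without CFIm59 line 2, and log2 -0.96 with the outermost sites, adjusted p = 0.264).

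Of 3 HP1 genes, 0 passed the expression test in any comparison (1 at an unadjusted p under 0.05, in the CFIm59 knockout). For site use 2 of them were tested, and both passed. CBX3 used its proximal site for 51.7% and 50.1% in the CFIm68 knockout lines, 6.45% and 5.44% in the CFIm59 knockout lines and 16.7% in the control, with adjusted p = 1.3e-06 in the CFIm68 knockout against the control, 0.0069 in the CFIm59 knockout against the control and 1.92e-14 between the knockouts. CBX5 used it for 26.7% and 23.3%, 8.02% and 9.22%, and 24.9% in the same groups, and passed in the CFIm59 knockout against the control (log2 -1.79, adjusted p = 0.00837) and between the knockouts (log2 1.81, adjusted p = 3.41e-05). With DESeq2 the calls of CBX3 and CBX5 in the CFIm59 knockout against the control were lost (adjusted p = 0.175 and 0.18), as were that of CBX3 without CFIm59 line 2 (0.0931) and that of CBX5 without either CFIm59 line (0.0558 and 0.0517). With the outermost sites CBX3 lost both calls against the control (adjusted p = 0.98 in the CFIm68 and 0.122 in the CFIm59 knockout).

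Of 13 NuRD genes, 2 rose in the CFIm59 knockout against the control, where 6.98% of all genes did. They were the remodeller CHD3 (log2 1.16, adjusted p = 0.0021) and MBD3, which lies on chromosome 19 (log2 1.03, adjusted p = 0.0071, and 0.0567 with DESeq2). In the CFIm68 knockout against the control, 0 passed the expression test (2 at an unadjusted p under 0.05). For site use, 25.0% of all genes moved to the proximal site in that comparison. Of the 11 tested for site use, 3 moved to the proximal site in the CFIm68 knockout against the control, GATAD2B (71.4% and 64.8% proximal in the CFIm68 knockout lines, against 33.1% in the control, adjusted p = 0.000366), RBBP7 (log2 2.03, adjusted p = 0.00128) and MTA1 (log2 2.27, adjusted p = 0.0296, 0.0788 without CFIm68 line 1 and 0.148 with DESeq2). MTA1 also moved to the proximal site in the CFIm59 knockout against the control (log2 3.21, adjusted p = 0.00432, 0.104 with DESeq2, and log2 -0.63 with the outermost sites). Its proximal share was 4.19% and 3.56% in the CFIm68 knockout lines, 8.41% and 6.23% in the CFIm59 knockout lines and 0.794% in the control. Both changes of MTA1 thus rest on very few control reads at that site.

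Of 4 genes of the HUSH complex and MORC2, which silence repeats, 0 passed the expression test against the control (1 in the CFIm68 and 2 in the CFIm59 knockout at an unadjusted p under 0.05), and MPHOSPH8 was lower in the CFIm68 than in the CFIm59 knockout (log2 -1.21, adjusted p = 0.00018). For site use, 1 of the 3 tested moved to the proximal site in the CFIm68 knockout against the control. FAM208A, the TASOR subunit of HUSH, used that site for 92.1% and 94.96% in the CFIm68 knockout lines, 25.3% and 32.4% in the CFIm59 knockout lines and 46.2% in the control (log2 4.05 for the CFIm68 knockout against the control, adjusted p = 3.88e-09).

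Of 8 genes for H3K9 and DNA methylation, UHRF1 (log2 1.24, adjusted p = 0.000745) and EHMT1 (log2 0.88, adjusted p = 0.0394, and 0.324 with DESeq2) rose and SUV39H2 (log2 -1.11, adjusted p = 0.0147, and 0.294 with DESeq2) fell in the CFIm59 knockout against the control, and EHMT1 and SUV39H2 also lost these calls without CFIm59 line 1 (adjusted p = 0.314 and 0.102). Of all genes, 6.98% rose and 6.87% fell in the CFIm59 knockout against the control. Among the 8 genes, UHRF1 and DNMT1 lie on chromosome 19. Of the 4 methylation genes tested for site use, SUV39H2 moved to the proximal site in the CFIm68 knockout against the control (log2 3.15, adjusted p = 0.000224). Of the 5 ZSCAN, ZFP, ZIM and PEG3 genes of chromosome 19, 0 passed the expression test in any comparison (1 in the CFIm59 knockout against the control and 2 between the knockouts at an unadjusted p under 0.05), with summed levels of 38.6 and 36.4 CPM in the CFIm68 knockout lines, 58.2 and 60.5 CPM in the CFIm59 knockout lines and 38.4 CPM in the control.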

How the data were processed

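Poly(A) site reads were counted in 5 libraries. The deposited values are raw read counts per site and library, per the file headers, with each site classed as last exon, intron or upstream exon. The submitters' processing notes name hg19, TopHat2 2.1.0 and deepTools 2.4. The sources used here do not give site calling, strand use or the handling of multi-mapped reads, and whether coordinates count from 0 or 1 is not stated.

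A site listed under several genes was counted at its first listing. Counts were summed per gene, filtered with filterByExpr, scaled by TMM and fitted with edgeR 4.0.16 (R 4.3.3), quasi-likelihood test, with all 5 libraries in 1 fit; the lone control is assumed to vary like the knockout lines. Site use took the 2 sites with most reads per gene (20 or more reads over both and 5 or more at each, averaged over the libraries), with library as a factor and the interaction of site and group. P-values were adjusted by Benjamini-Hochberg over all 14636 or 5869 genes tested (threshold 0.05, 2-sided) and measure the spread between cell lines of 1 genotype. Intervals and floors (3 reads) cover counting error only. The fits were tested on simulated data. DESeq2 1.42.0, other filters, other site pairs and leaving out each line were alternatives.

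The members, gene lists and tests were chosen with earlier results of these data known. Named genes were the 8 higher and 8 lower members with the largest change per comparison (10 or more reads per library on average), up to 10 each way for site use, the 6 most read members, the genes around the 30-read threshold, the largest change of each cluster, and CPSF6, CPSF7 and NUDT21 with the lists. Some of these share a rule and are given once.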

Additional observations from a re-analysis of the deposited data

How the results depend on the processing

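With DESeq2, 17 members rose in the CFIm59 knockout against the control, where edgeR gave 49, and 13 were lower and 0 higher in the CFIm68 than in the CFIm59 knockout, where edgeR gave 40 and 3. In the CFIm68 knockout against the control it left 156 of 157 members without an adjusted p, so its 0 higher and 0 lower there rest on 1 member. Without independent filtering, an alternative chosen after seeing the data, all 157 had one and the counts were 0 and 0 again, with 17, 13 and 0 in the other comparisons as before. For site use DESeq2 gave 0 to proximal and 0 to distal in the CFIm68 knockout with and without that filtering; in the CFIm59 knockout it gave an adjusted p for 4 of 28 members, and for all 28 without filtering, with 0 calls either way. With no filter beyond 1 read, 1 member was higher in the CFIm68 knockout against the control and 2 were lower in the CFIm59 knockout. With 20 or more reads per library on average, 82 members were tested: in the CFIm68 knockout 1 was higher and 0 lower than the control, and 26 were lower and 0 higher than in the CFIm59 knockout. Without sites listed under more than 1 gene, 1 member fell in the CFIm59 knockout and 1 moved to its distal site there. With last exon sites only, an alternative chosen after seeing the data, 4 were higher in the CFIm68 knockout against the control. For site use, no minimum beyond 1 read gave 1 to proximal and 1 to distal in the CFIm68 knockout against the control and 17 to proximal between the knockouts, of 146 tested; last exon pairs gave 1 to distal in each; the outermost sites gave 1 to distal in the CFIm59 knockout. The minimum of 100 reads per pair left no member. The cause of these shifts was not tested beyond the smaller number of genes tested.

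Leaving out 1 knockout line at a time gave 38 to 58 members higher and 0 to 1 lower in the CFIm59 knockout against the control, 1 to 3 higher and 0 to 1 lower in the CFIm68 knockout against the control, and 22 to 30 lower and 0 to 3 higher between the knockouts. For site use it gave 0 to 3 to proximal and 1 to 2 to distal in the CFIm68 knockout, and 0 to 1 to distal in the CFIm59 knockout. For called values of named genes, leaving out 1 line kept 184, lost 43 and reversed 1, that of ZNF77, which ranged from -3.11 to 3.34 between the knockouts. The other alternatives kept 350 and lost 70. A median shift of all genes above 0.1 (log2) did not occur under any scaling.

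The line numbers did not pair the samples: same-numbered deviations from the group means correlated at -0.0213 over genes. With the number as a replicate block in the 4 knockout libraries, 45 members were lower and 3 higher in the CFIm68 than in the CFIm59 knockout, against 42 lower without the block; for site use 6 moved to proximal and 2 to distal with it.

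Low depth limits the family: the median member held 102 reads over 5 libraries, and the control is 1 library, so its own variation is unknown.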
